A study of Mus musculus with 32 samples.

Results

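The genes described here are the vomeronasal type 2 receptor genes, the RefSeq protein-coding genes on the autosomes of the mouse assembly GRCm38 whose symbols start with Vmn2r. By this rule there were 123 members among 20661 autosomal protein-coding genes. One member, Vmn2r122, was taken to lie on a scaffold outside the assembled chromosome sequence, a status inferred from its coordinates. It was not measured, which left 122 members among 20554 genes. The values are lengths of gene inside peaks of H3K9me3, the trimethyl mark on lysine 9 of histone H3 that is found in heterochromatin, mapped by chromatin immunoprecipitation and sequencing. Male germ cells (gonocytes) were taken from testes of mice carrying the Mvh-Venus transgene, as the labels state for both genotypes. The stages were E13.5 and E16.5, counted in days of embryonic development, together with P0 and P3, counted in days from birth. At each stage Morc1 (+/-) animals, called het, were compared with Morc1 (-/-) animals, called KO, so the comparison group also lacked 1 Morc1 allele.

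The 32 samples of the series fall into 16 groups of 2, and 8 of these groups are H3K9me3 samples with 1 deposited peak list for each group. A list names a genotype and a stage but no replicate, so no spread between animals could be measured, and every difference below is between 2 lists with no replicate check and no p-value. The lists held 50191 to 89020 autosomal peaks. They carry positions only, with no height and no read depth, so a gene that is "called" is one with at least 1 bp of its body, from annotated start to annotated end, inside a peak. A stretch outside every peak is uncalled, which is not a measurement that it lacks the mark. All intervals are 95% Wilson intervals over units of 1 kb, or over genes for counts, and cover counting error only. The interval of a ratio treats the called lengths of its 2 lists as independent, although the lists share many called positions.

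Type 2 vomeronasal receptors are G protein-coupled receptors of class C, with a large extracellular domain, and are used by sensory neurons of the basal layer of the vomeronasal organ to detect peptide and protein pheromones. Most such neurons use 1 receptor of the large families together with a receptor of the small family C, which comprises Vmn2r1 to Vmn2r7. The genes lie in arrays of close copies, and arrays of chemoreceptor genes are known as sites of H3K9me3 in several cell types that do not use the receptors. MORC1 is an ATPase of the male germ line known for its part in silencing transposons.

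Members lay on 8 autosomes, 52 of them on chromosome 7 and 32 on chromosome 17. With neighbours up to 1 Mb apart joined, 117 members formed 12 clusters and 5 stood alone (Vmn2r18, Vmn2r28, Vmn2r118, Vmn2r120 and Vmn2r129). Gene bodies had a median length of 24.6 kb (range 8.40 to 142.7 kb), against 17.6 kb for all protein-coding genes. The bodies of Vmn2r1 and Vmn2r2 overlap, so a peak there counts for both. Vmn2r-ps130 is a member because the annotation lists it as protein-coding.

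RefSeq promoter windows (GRCm38.p6), from 250 bases before to 50 bases after an annotated start, were at hand for 116 members. In some members this start lies inside the measured body, so the window is not at the edge of the body. Vmn2r2 is one, with a window at chr3:64137431-64137730 and a body of chr3:64115730-64170917. The windows of Vmn2r1, Vmn2r4, Vmn2r6 and Vmn2r94 also lie inside their bodies. Of the 116 windows, 7 are shown, 5′ to 3′ along the gene, because the results below turn on these genes, with CG dinucleotides in capitals. All lie on the minus strand. Vmn2r104 (chr17:20048156-20048455) and Vmn2r74 (chr7:85961433-85961732) were called over the whole body in every list. Vmn2r94 (chr17:18277517-18277816) was the member whose called length varied most over the lists. Vmn2r29 (chr7:7278240-7278539) was the longest member without a call, and Vmn2r31 (chr7:7399578-7399877) and Vmn2r30 (chr7:7337444-7337743) were uncalled neighbours of it. Vmn2r51 (chr7:10105610-10105909) was called in all 8 lists although it lies in the same cluster as those 3.
Vmn2r104: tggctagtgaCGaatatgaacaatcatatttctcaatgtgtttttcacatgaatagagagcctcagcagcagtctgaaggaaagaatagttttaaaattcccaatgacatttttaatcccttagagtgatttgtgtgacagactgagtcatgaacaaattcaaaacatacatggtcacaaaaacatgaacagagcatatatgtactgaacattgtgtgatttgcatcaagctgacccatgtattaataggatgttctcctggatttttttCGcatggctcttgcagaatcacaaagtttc
Vmn2r74: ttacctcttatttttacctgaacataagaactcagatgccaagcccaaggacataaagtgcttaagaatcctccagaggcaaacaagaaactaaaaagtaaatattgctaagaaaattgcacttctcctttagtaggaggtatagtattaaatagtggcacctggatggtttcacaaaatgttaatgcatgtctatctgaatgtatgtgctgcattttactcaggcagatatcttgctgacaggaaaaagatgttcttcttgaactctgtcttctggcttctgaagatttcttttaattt
Vmn2r94: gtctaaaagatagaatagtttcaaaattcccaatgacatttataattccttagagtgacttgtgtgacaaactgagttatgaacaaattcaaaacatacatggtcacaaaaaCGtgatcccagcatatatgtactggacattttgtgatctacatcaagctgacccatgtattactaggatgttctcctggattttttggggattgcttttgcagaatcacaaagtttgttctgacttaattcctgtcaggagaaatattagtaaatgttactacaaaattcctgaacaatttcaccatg
Vmn2r29: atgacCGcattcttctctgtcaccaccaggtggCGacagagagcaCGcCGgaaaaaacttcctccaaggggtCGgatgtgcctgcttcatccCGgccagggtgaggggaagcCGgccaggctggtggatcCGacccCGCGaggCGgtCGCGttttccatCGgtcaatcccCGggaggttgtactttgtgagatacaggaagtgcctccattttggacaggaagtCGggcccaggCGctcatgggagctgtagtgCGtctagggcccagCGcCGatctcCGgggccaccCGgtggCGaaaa
Vmn2r31: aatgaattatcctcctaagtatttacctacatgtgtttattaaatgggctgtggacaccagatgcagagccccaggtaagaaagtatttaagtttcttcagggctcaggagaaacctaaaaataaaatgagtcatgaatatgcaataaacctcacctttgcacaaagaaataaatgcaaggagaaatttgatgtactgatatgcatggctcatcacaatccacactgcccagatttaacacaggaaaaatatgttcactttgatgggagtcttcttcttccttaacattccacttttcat
Vmn2r30: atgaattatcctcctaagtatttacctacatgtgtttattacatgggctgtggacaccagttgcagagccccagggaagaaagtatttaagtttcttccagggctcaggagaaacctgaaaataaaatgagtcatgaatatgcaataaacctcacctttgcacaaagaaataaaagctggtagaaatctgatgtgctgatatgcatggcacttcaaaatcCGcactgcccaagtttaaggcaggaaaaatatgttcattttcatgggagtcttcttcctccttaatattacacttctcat
Vmn2r51: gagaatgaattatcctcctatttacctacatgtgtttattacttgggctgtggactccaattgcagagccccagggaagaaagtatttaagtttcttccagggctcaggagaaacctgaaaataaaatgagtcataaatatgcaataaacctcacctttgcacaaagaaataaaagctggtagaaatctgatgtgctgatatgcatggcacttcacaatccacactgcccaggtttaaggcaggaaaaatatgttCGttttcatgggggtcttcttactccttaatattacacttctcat

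The windows of Vmn2r104 and Vmn2r74 hold 2 and 0 CG dinucleotides, whereas the window of Vmn2r29 holds 23 and shared no more than 30 bases with any other member. The window of Vmn2r31 is identical to that of Vmn2r33 over all 300 bases, and those of Vmn2r30 and Vmn2r51 each have close copies among the members, with 293 and 286 identical bases in the best local alignment.

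Vmn2r gene bodies were covered by H3K9me3 peaks several times more than other genes in every list. In het cells the share of the summed body length inside peaks was, in order of stage, 25.3% (interval 23.9 to 26.9%), 32.5% (30.9 to 34.1%), 30.5% (28.9 to 32.1%) and 21.4% (20.1 to 22.9%). In KO cells the shares were 28.0%, 32.5%, 31.9% and 24.6%. The other autosomal protein-coding genes had 3.34%, 5.60%, 6.05% and 6.57% in het and 3.91%, 5.12%, 7.24% and 7.82% in KO. The Vmn2r share was thus highest at E16.5 and lowest at P3, while that of other genes was highest at P3. The family was close to the other large chemoreceptor families: type 1 vomeronasal receptor genes (Vmn1r, 229 genes) had 23.3 to 32.03% and olfactory receptor genes (Olfr, 1103 genes) 17.7 to 30.3% over the 8 lists. The 128 Vmn2r pseudogenes had 20.3 to 26.2%. The 41 other protein-coding genes inside the clusters, among them 15 Olfr and 7 Zfp genes, had 7.73 to 10.7%.

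Counted as genes, 73 of 122 members were called at E13.5 in het cells, where 30.9% of all protein-coding genes were, and 74 in KO cells, where 34.4% were. At E16.5, het first, 78 and 79 members were called (background 33.1% and 32.2%). The P0 lists called 84 and 81 (35.2% and 40.3%), and the P3 lists 76 and 80 (39.2% and 41.9%). Members with at least 50% of the body in peaks numbered, by stage and het first, 29 and 37 (background 2.46% and 3.2%), 38 and 41 (3.53% and 3.3%), 34 and 39 (3.16% and 3.53%), then 22 and 26 (3.03% and 3.47%). The count of called members thus ranged from 73 to 84 over the lists. For members called at both stages, with at least 1 kb in either list, the median ratio of called length was also taken. It was 1.08 in het and 1.0 in KO cells from E13.5 to E16.5, and 1.0 in both from E16.5 to P0. From P0 to P3 it was 0.740 in het and 0.775 in KO cells, so the typical called member lost coverage at this step. Across the lists, 67 members were called in all 8 lists (background 20.0%), 36 in none (background 43.7%), and 19 in some.

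**Figure D1:**
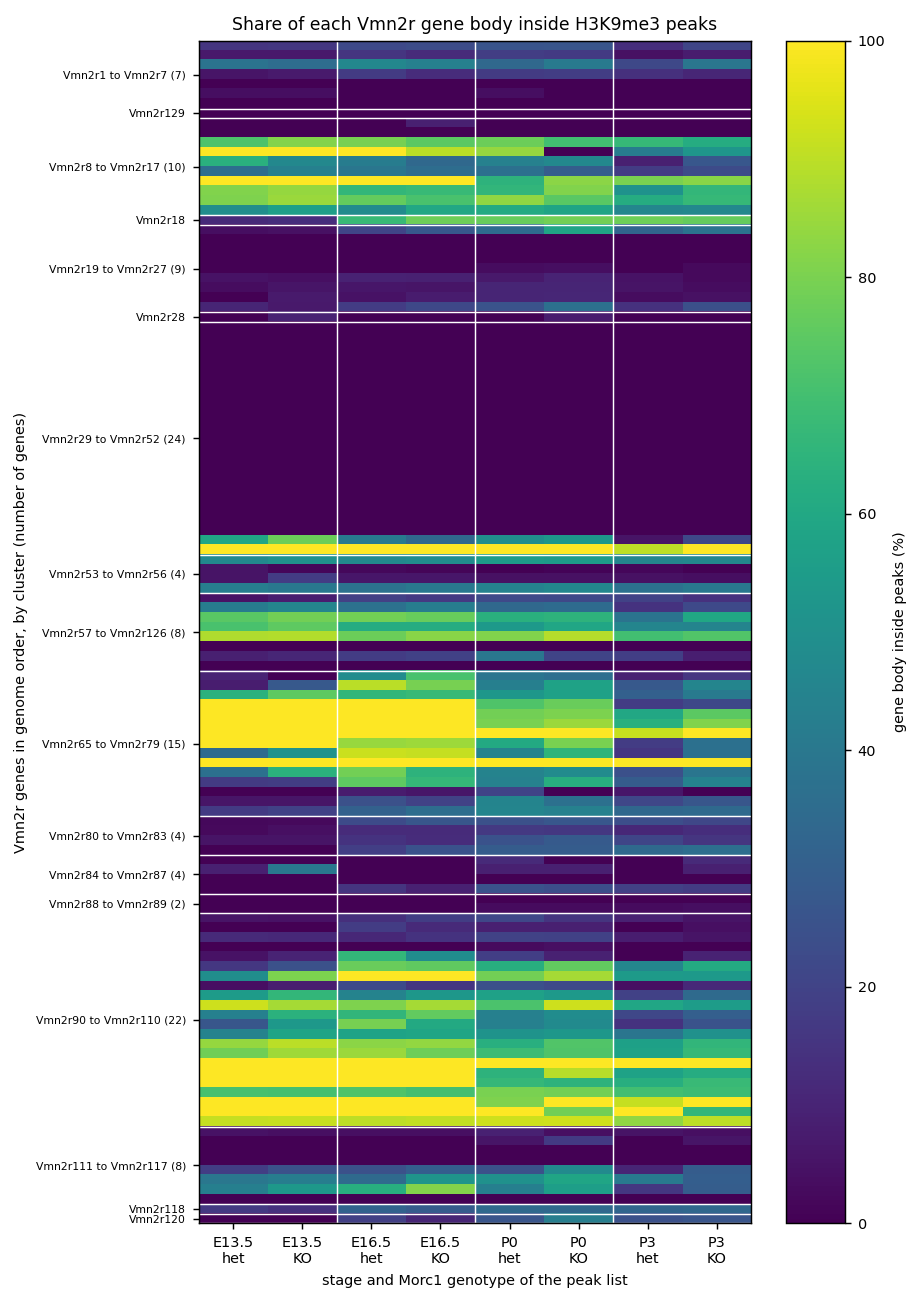
Share of the body inside H3K9me3 peaks (colour, in %) for each of the 122 measured Vmn2r genes (rows, in genome order, grouped by cluster) in each of the 8 peak lists (columns, by stage and genotype). Whole clusters differ: 22 of the 24 genes of Vmn2r29 to Vmn2r52 are uncalled in every list, whereas all 22 genes of Vmn2r90 to Vmn2r110 are called in at least 1.

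The covered lengths came in long blocks. Each list had 146 to 207 peaks that touched a member, with a median length of 3.61 to 6.23 kb against 1.86 to 2.58 kb for all autosomal peaks. Peaks of 10 kb or more made up 15.9 to 33.3% of those on members and 4.45 to 6.60% of all. A longer peak is more likely to touch a gene, so both comparisons favour long peaks on members. Peaks that touch other genes were not measured for comparison. The longest peak on a member was chr17:20160298-20265001 in KO cells at E13.5, 104.7 kb, which took in the whole of Vmn2r105. Peaks of 88.5 to 104.7 kb stood there in all 4 embryonic lists, and at P0 the longest peaks on members were 57.9 kb in het and 55.6 kb in KO cells at the same place. At P3 no peak on a member was longer than 38.1 kb.

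Along the genes the coverage had no marked low point at the 5′ end. In het cells at E16.5 the mean share over members was 39.2% in the 1 kb before the start, 38.0% in the first of 20 equal parts of the body, 41.6% in the last, and 44.8% in the 1 kb after the end. All protein-coding genes together had 5.17%, 4.95%, 6.93% and 7.41% at these places, with the lowest value at the start of the gene. The 5 kb flanks of the members were covered to 28.2 to 35.2% from E13.5 to P0 and to 23.6% and 25.8% at P3, so the peaks ran past the genes.

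**Figure D2:**
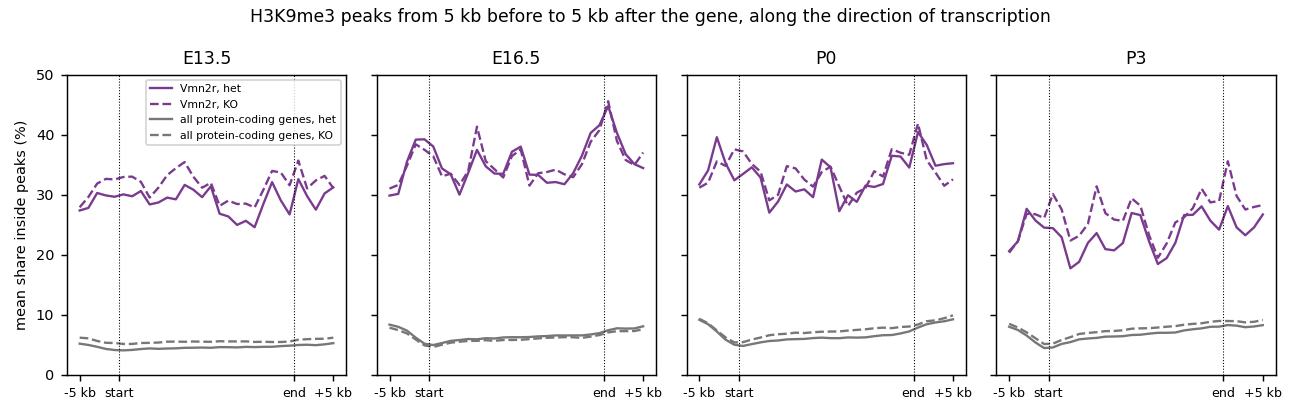
Mean share inside H3K9me3 peaks (y axis, in %) from 5 kb before the start to 5 kb after the end of the gene, along the direction of transcription (x axis; bodies cut into 20 equal parts, flanks into 1 kb), for 116 Vmn2r genes (purple) and all protein-coding genes (grey), in het (solid) and KO (dashed) lists at 4 stages. The Vmn2r curves lie above the grey ones at every position and drop at P3.

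The clusters differed more from each other than the stages or genotypes did. Vmn2r90 to Vmn2r110 on chromosome 17 (chr17:17703941-20596259, 22 members) had, by stage, 48.8%, 62.7%, 51.8% and 38.7% of its bodies covered in het cells. In KO cells it had 55.0%, 61.5%, 54.4% and 42.7%. All 22 of its members were called in at least 1 list and 19 in all 8. Vmn2r65 to Vmn2r79 (chr7:84940169-87037968, 15 members) was at 39.5%, 62.8%, 51.6% and 29.7% in het cells, with its highest share at E16.5. Vmn2r8 to Vmn2r17 (chr5:108797193-109453387, 10 members) was at 57.3%, 55.1%, 55.3% and 38.6% over the 4 stages in het cells. Vmn2r57 to Vmn2r126 (chr7:41399732-43048106, 8 members) was at 43.3%, 42.9%, 41.3% and 30.2%.

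Other clusters were covered far less. Vmn2r80 to Vmn2r83 on chromosome 10 had 2.79% of its bodies covered in het cells at E13.5 and 16.999%, 23.1% and 20.8% at the later stages, so most of its coverage appeared after the first stage. Vmn2r19 to Vmn2r27 on chromosome 6 had 2.41 to 13.3% over the 8 lists, and its members Vmn2r20, Vmn2r21 and Vmn2r22 were uncalled throughout a stretch of 281.5 kb. In Vmn2r111 to Vmn2r117 on chromosome 17, with 8.68 to 22.3% over the lists, 3 of 8 members were never called. The cluster length outside Vmn2r bodies can include other genes, so it is not gene-free. Of this length, 41.1 to 62.8% was in peaks in Vmn2r90 to Vmn2r110 and 0.813 to 1.56% in Vmn2r29 to Vmn2r52. These shares were near those of the bodies in the first and lower than those in the second. Other clusters differed between the Vmn2r bodies and the rest of the cluster. In Vmn2r88 to Vmn2r89 no base of a body was called in the 4 embryonic lists, while 14.5 to 28.0% of the length outside the bodies was. Vmn2r19 to Vmn2r27 had 14.3 to 26.9% outside its Vmn2r bodies, more than over its bodies in each list. Conversely, Vmn2r84 to Vmn2r87 had 15.4% of its bodies and 0% of the length between them called in het cells at P0.

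**Figure D3:**
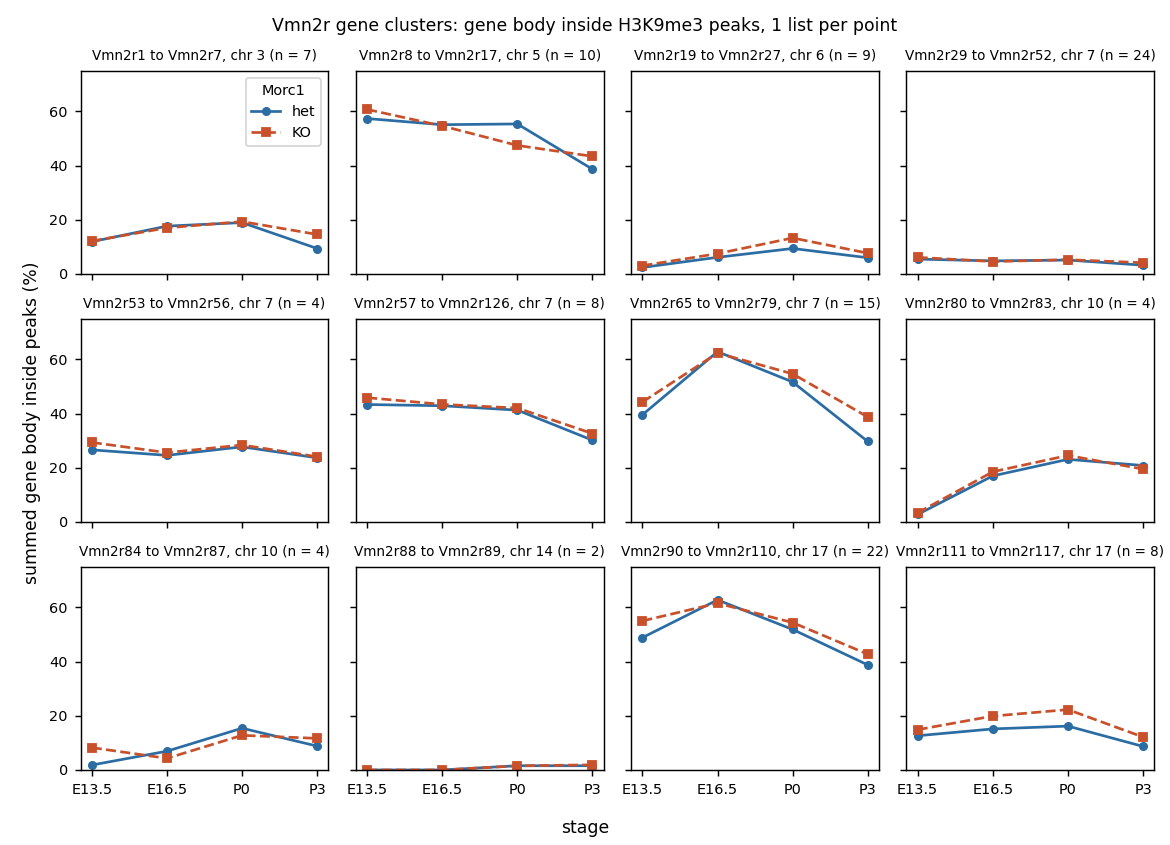
Share of the summed gene bodies inside H3K9me3 peaks (y axis, in %) by stage (x axis) in the 12 Vmn2r clusters, for het (circles, solid) and KO (squares, dashed), each point being 1 list. The curves of both genotypes follow each other in most panels, and 11 of 12 clusters are lower at P3 than at P0 in each genotype.

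The cluster with the most genes was also the one with the most uncalled genes, although Vmn2r88 to Vmn2r89 had a lower share of its bodies in peaks in every list. Of the 24 members of Vmn2r29 to Vmn2r52 (chr7:7212996-10176286), 22 had no called base in any list, and they make up most of the 36 members never called. A stretch of 2877 kb that spans all 22, chr7:7201908-10078478, held no peak in any of the 8 lists. It was the second longest such stretch on the autosomes, where 12 reached 1 Mb and the median distance was 8.43 kb. At its distal edge the next members were called in every list: Vmn2r51 and Vmn2r52. Of its 18.5 kb, Vmn2r51 had, by stage, 10.9, 7.501, 9.10 and 1.00 kb in peaks in het cells and 14.3, 6.25, 9.80 and 3.99 kb in KO cells. Vmn2r52 had its whole 17.6 kb in peaks except in het cells at P3, with 15.9 kb.

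The never-called members more often had close copies of their promoter window among the other members. Of 32 never-called members with a promoter window, 27 had at least 270 of 300 bases identical with another member's window, and the median of the 32 was 292. Among the 84 called members 42 reached 270, and the median was 270. The median was 297 for the windows of Vmn2r29 to Vmn2r52 and 253.5 for those of Vmn2r90 to Vmn2r110. The threshold of 270 was chosen after the values had been seen. Likeness and calls did not always go together: all 8 windows of Vmn2r111 to Vmn2r117 had at least 289 identical bases, and 4 of those genes were called in all 8 lists, whereas Vmn2r29, with a window unlike the others, was in no list. How reads that match several places were treated is not given in the sources used here, and the part of sequence likeness in the missing calls was not tested.

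**Figure D4:**
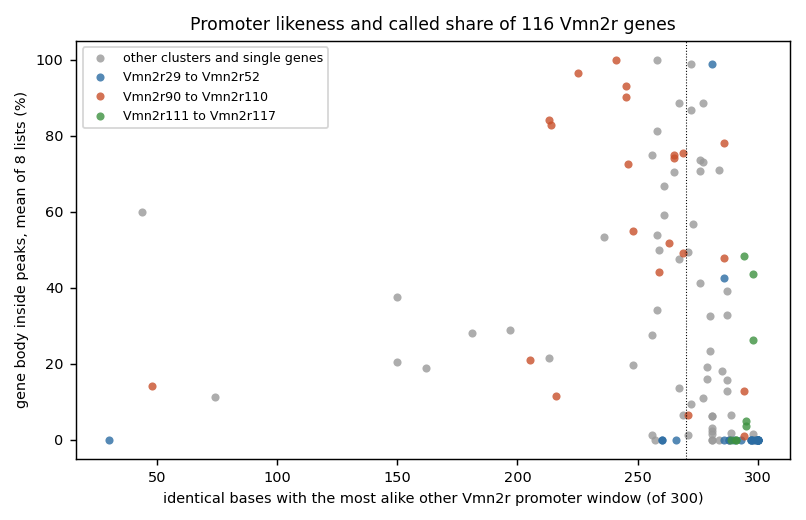
Share of the gene body inside H3K9me3 peaks (y axis, mean of the 8 lists in %) against the number of bases identical with the most alike other Vmn2r promoter window (x axis, of 300) for 116 members, with 3 clusters in colour and a dotted line at 270. The uncalled genes of Vmn2r29 to Vmn2r52 gather at the right end of the axis, and so do the called genes of Vmn2r111 to Vmn2r117.

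Single genes ranged from fully covered to empty. Vmn2r104 (chr17:20029425-20048205, 18.8 kb) and Vmn2r74 (chr7:85951867-85961482, 9.62 kb) lay wholly in peaks in all 8 lists. The block over Vmn2r74 had lengths of 28.7 to 29.1 kb, while the block over Vmn2r104 ranged from 32.3 kb in het cells at E13.5 to 23.3 kb in KO cells at P3. Next came Vmn2r71 with a mean share of 98.9%, Vmn2r52 with 98.8% and Vmn2r108 with 96.5%. At least 50% of the body was covered in every list in 20 members, a count for which no background over all genes was taken. At the other end, the longest members without a call were Vmn2r29 (65.3 kb), Vmn2r21 and Vmn2r22 (both 40.9 kb), Vmn2r35 (33.7 kb) and Vmn2r20 (32.8 kb).

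Receptors with a described role were spread over this range. In family C, whose members are co-expressed with the other receptors, Vmn2r3 was covered to a mean of 37.5%, Vmn2r1 to 20.4%, Vmn2r4 to 12.9% and Vmn2r2 to 11.1%, whereas Vmn2r6 had a call in 3 lists and Vmn2r5 and Vmn2r7 in none. Vmn2r116, the receptor for the male tear peptide ESP1, had, of its 17.1 kb and by stage, 7.34, 10.7, 7.35 and 2.75 kb in peaks in het cells and 9.11, 13.9, 9.57 and 5.06 kb in KO cells. It was longer in KO at each stage, and both genotypes were lowest at P3. Its neighbour Vmn2r115, a receptor for the juvenile peptide ESP22, had, of its 16.2 kb, 6.38, 5.60, 8.17 and 6.61 kb in het and 6.86, 8.41, 9.50 and 4.83 kb in KO cells, so the order of the genotypes changed at P3. Vmn2r26, a receptor for peptide ligands of MHC class I molecules, was covered to a mean of 6.09%, and Vmn2r53 to 49.4%.

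Between E13.5 and E16.5 the summed called length of the members grew from 826 to 1059 kb in het cells, a ratio of 1.28, and from 913 to 1059 kb in KO cells, a ratio of 1.16. In other genes the ratios were 1.68 and 1.31. The growth was not in every cluster. Of 11 clusters with called body length at E13.5, 7 were higher and 4 lower at E16.5 in het cells. In KO cells 6 were higher and 5 lower. A gene was counted as higher or lower when its called length differed by at least 1.5-fold and 1 kb, among genes with at least 1 kb in either list, a rule that a gene already mostly covered cannot meet upward. By it 32 of 79 members were higher at E16.5 in het (40.5%, background 49.0%) and 29 of 80 in KO cells (36.3%, background 35.6%), and 3 and 5 were lower (background 19.0% and 28.4%). The range over the 8 lists was widest for Vmn2r94, which at the first 2 stages had 2.002 and 27.6 kb in het cells and 4.22 and 20.2 kb in KO cells. It then had 7.77 kb in het and 3.80 kb in KO cells at P0, and 0 and 4.01 kb at P3, so its coverage was high at 1 stage. The single gene Vmn2r18 went from 2.99 to 16.98 kb in het and 3.31 to 19.7 kb in KO cells. It was at 19.3 to 19.85 kb in the 4 postnatal lists.

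From E16.5 to P0 the totals were nearly level, with ratios of 0.937 in het and 0.980 in KO cells, while other genes had 1.08 and 1.42. By the 1.5-fold rule 17 of 82 members were higher at P0 in het cells (20.7%, background 31.2%) and 14 of 82 in KO cells (17.1%, background 52.0%). Lower at P0 were 10 (12.2%, background 21.2%) and 7 (8.54%, background 9.58%). From P0 to P3 the members lost called length in both genotypes. The total went from 992 to 698 kb in het cells, a ratio of 0.703 (interval 0.639 to 0.775), and from 1039 to 800 kb in KO cells, a ratio of 0.771 (0.703 to 0.845). Other genes had ratios of 1.09 and 1.08. In het cells 75 members had less at P3 and 6 had more, and in KO cells 70 had less and 6 more. Of the other genes, 3080 had less and 5287 more in het cells, and 3537 less and 5511 more in KO cells. The loss was in both genotypes for 65 members, and the gain for 2, counts for which no background was taken. By the 1.5-fold rule 39 of 82 members were lower in het cells (47.6%, background 14.2%) and 33 of 81 in KO cells (40.7%, background 16.1%). Of 82, 0 were higher in het (background 36.7%) and 2 of 81 were in KO cells (background 29.3%). The corresponding ratios were 0.812 and 0.916 for Vmn1r and 0.876 and 0.889 for Olfr genes. Consecutive steps share the list in the middle, so they are not independent of each other.

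Of the base pairs called in members at P0, 32.3% were not called at P3 in het and 26.1% in KO cells, while 4.45% and 4.497% of those called at P3 were new. Over other genes 24.6% and 23.6% were lost and 30.8% and 29.5% were new. Little of the length called at P3 was thus new. In Vmn2r68 a long block gave way to short ones: its 16.2 kb lay whole in 1 peak in each embryonic list, and at P3 it had 3 separate peaks of 1.00 to 3.01 kb in each genotype, covering 2.85 kb in het and 3.51 kb in KO cells. The summed body length was lower at P3 in 11 of 12 clusters in each genotype, with ratios from 0.496 to 1.00 in het and 0.545 to 1.25 in KO cells. The exception, Vmn2r88 to Vmn2r89, had 1.52 to 1.90% of its bodies covered at these stages. Of its whole interval, bodies and the rest together, 23.4% in het and 21.9% in KO cells was in peaks at P0. At P3 these shares were lower, at 8.67% and 8.12%. Of the 5 single genes, Vmn2r18 had ratios of 1.02 in het and 0.974 in KO cells and Vmn2r118 had 0.956 and 0.990. Vmn2r120 had 0.937 in het cells and 0.616 in KO cells, where it went from 15.6 to 9.62 kb. Vmn2r28 had a call at P0 in KO cells only, 1.001 kb, and none at P3, and Vmn2r129 was uncalled in all 8 lists.

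The KO lists held somewhat more called Vmn2r length than the het lists at E13.5 and P3, with a smaller excess at P0 and nearly equal lengths at E16.5. The KO to het ratio of summed body length was, in order of stage, 1.11 (interval 1.01 to 1.21), 1.00 (0.919 to 1.09), 1.05 (0.959 to 1.14) and 1.15 (1.04 to 1.27). These intervals take each 1 kb as independent, although a single peak often spans several. They therefore cannot tell stages with a genotype difference from stages without one. Other genes had 1.17, 0.913, 1.20 and 1.19, so the ratio was lower in the members than in other genes at E13.5, P0 and P3 and higher at E16.5, with the widest gap at P0. Vmn1r genes had 1.08, 0.869, 0.933 and 1.05, and Olfr genes 1.07, 0.957, 1.05 and 1.07. Both families were thus also below other genes at E13.5, P0 and P3, while at E16.5 only Olfr was above them. In the 5 kb flanks of the members the ratios were 1.07, 1.00, 0.962 and 1.10. With KO lengths scaled by the ratio over all other genes, the Vmn2r body ratios became 0.943, 1.10, 0.874 and 0.963, which turns the direction at 3 stages. The numbers of peaks in the lists differed as well, with 50191, 74722, 82082 and 77632 in het and 55136, 70487, 89020 and 82590 in KO. With equal numbers of peaks in both lists of a stage the ratios were 1.10, 1.00, 1.04 and 1.13.

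Among members that differed at all, those with more called length in KO cells were, by stage, 47 of 60 (78.3%, background 70.6%), 31 of 65 (47.7%, background 34.1%), 48 of 80 (60.0%, background 79.8%) and 58 of 80 (72.5%, background 70.9%). By the 1.5-fold rule those higher in KO were 12 of 75 (16.0%, background 28.6%), 3 of 77 (3.90%, background 6.37%), 5 of 83 (6.02%, background 35.0%) and 25 of 80 (31.3%, background 27.8%). Those higher in het numbered 1, 2, 7 and 4 (background 8.91%, 11.4%, 6.12% and 9.53%). At P0 the members thus had a smaller share of KO-higher genes than all genes, and at P3 a share near the background. Vmn1r (4.76%) and Olfr genes (10.2%) also had a smaller share than all genes at P0.

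**Figure D5:**
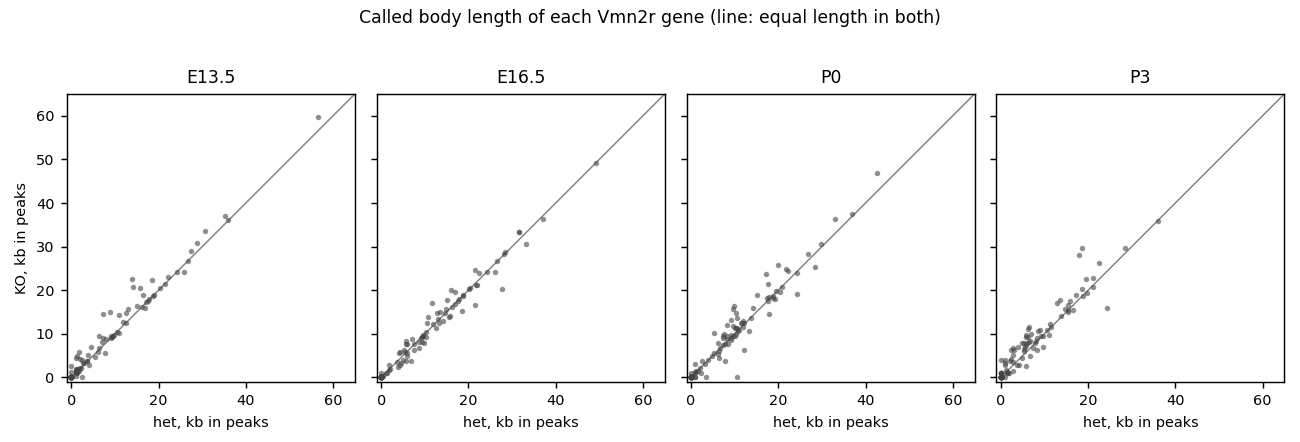
Called body length of each of the 122 Vmn2r genes in the KO list (y axis, kb) against the het list (x axis, kb) at each stage, with the line of equal length. Points lie close to the line at E16.5, and at P3 58 of the 80 genes that differ lie above it.

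The positions of the calls were largely shared. The Jaccard index, base pairs called in both genotypes over those called in either, was 0.833, 0.874, 0.810 and 0.740 in members by stage, against 0.635, 0.759, 0.646 and 0.624 in other genes. The largest differences at E13.5 were in Vmn2r95, with 13.8 kb in het and 22.7 kb in KO, and Vmn2r100, with 7.29 and 14.5 kb. At E16.5 Vmn2r94 had 27.6 kb in het and 20.2 kb in KO, and Vmn2r65 had 11.6 and 17.04 kb. At P0 Vmn2r11 had 10.61 of its 12.6 kb in 2 peaks in het cells and no call in KO cells, although it was called in both genotypes at the other 3 stages. Vmn2r19 had 9.83 and 16.4 kb at P0. At P3 Vmn2r1 had 18.6 and 29.8 kb and Vmn2r59 17.9 and 28.2 kb, both longer in KO.

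More called length in KO at all 4 stages was found for 13 members (background 3.06%) and less for 1, Vmn2r107 (background 0.632%). These backgrounds are over all genes, and a gene must be called at every stage to count. Calls in all 8 lists were found for 67 of 122 members but 20.0% of all genes, so the shares are not like for like. Of the 13, the 5 with the largest smallest difference were Vmn2r116, Vmn2r99, Vmn2r114, Vmn2r1 and Vmn2r102. By stage, Vmn2r99 had 14.1, 21.4, 14.2 and 6.95 kb in het and 20.7, 24.7, 15.8 and 9.86 kb in KO cells. Vmn2r114 had 3.90, 5.33, 5.34 and 2.25 kb in het and 5.26, 6.39, 10.2 and 6.26 kb in KO cells. Vmn2r114 and Vmn2r116 are both in Vmn2r111 to Vmn2r117, whose KO to het ratios were 1.177, 1.31, 1.38 and 1.40. The smallest difference of Vmn2r107 was 0.071 kb. Neighbouring genes can share a peak and are not independent of each other.

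Promoter windows of the members were also called more often than those of all protein-coding genes, as were those of the other chemoreceptor families. Over the 8 lists, 23.3 to 37.1% of Vmn2r, 18.4 to 25.2% of Vmn1r and 17.1 to 31.0% of Olfr windows had a called base. In het cells, by stage, 32 (background 4.53%), 42 (5.03%), 35 (5.13%) and 27 (4.47%) of the 116 windows had a called base. In KO cells the counts were 36 (5.98%), 43 (4.76%), 42 (5.64%) and 31 (5.27%). Most of these windows lay whole inside a peak, 31 of the 32 in het cells at E13.5, against 609 of 745 called windows of all protein-coding genes. The windows were poor in CG: the median was 1 dinucleotide, against 14 over 16456 windows of all protein-coding genes, and 28.4% held none, against 4.96%. Their median GC content was 38.0%, against 56.7%. The letters TATAAA, on either strand, occurred in 23.3% of Vmn2r windows and 13.54% of all windows. Of the 20 windows called in all 8 lists 0 held TATAAA, and of the 65 called in none 19 did. This is a description of these letters in these windows, which include near-identical copies.

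Other genes of the vomeronasal system were covered in some groups and little in others. As background for the counts, 43.7% of all protein-coding genes were called in no list and 20.0% in all 8. Of 5 genes used for signalling in vomeronasal neurons, the G protein genes Gnai2 and Gng8 and the MHC light chain gene B2m had no call in any list. The channel gene Trpc2, with a mean of 11.3%, and Gnao1, the G protein alpha subunit of the neurons that use type 2 receptors, with 5.51%, were called in all 8. Of 9 H2-M genes, MHC class Ib genes co-expressed with these receptors, 8 were never called. The exception was H2-M11, uncalled in het and at 51.8% in KO cells at E13.5, and at 95.1 to 100% in all 6 later lists. Of 15 Esp genes, which encode secreted peptide ligands, 6 were never called, a share near the background. Called in all 8 lists were 6, with Esp23, Esp24 and Esp36 fully covered in each. Esp1, the ligand gene for Vmn2r116, was uncalled in the 4 embryonic lists and had 26.8 to 49.8% in the 4 postnatal ones. Of 22 Mup genes, for urinary proteins, 18 were never called. Among 5 formyl peptide receptor genes Fpr-rs3 and Fpr-rs6 were fully covered in every list. Fpr3 was uncalled at E13.5 and fully covered in the 6 later lists. Fpr-rs7 was fully covered in the 4 embryonic lists and had 0 to 22.1% in the 4 postnatal ones. Fpr-rs4 was called only in het cells at E16.5, at 7.82%. Fpr3, Fpr-rs4, Fpr-rs6 and Fpr-rs7 are among the other genes inside the Vmn2r clusters, on chromosome 17. The 15 class C receptor relatives outside the family, such as glutamate and taste receptor genes, had 2.86 to 9.23% of their summed bodies in peaks, well under the Vmn2r shares in each list.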

How the data were processed

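H3K9me3 ChIP-seq peak lists of male germ cells were used, 1 per genotype and stage. Per the submitters' processing notes, which give no order or role, the tools were bcl2fastq 2.20, cutadapt 1.18, Bowtie2 2.3.4.1, deepTools 3.5.0 and HOMER 4.10, and the build was mm10. The lists, as the authors deposited them, hold chromosome, start and end only. The threshold, control, pooling of replicates, treatment of reads with several matches and read depth are not given in the sources used here. The samples with an antibody against histone H3 were not analysed here. Genes and promoter windows came from RefSeq GRCm38.p6, the same assembly as mm10. Base pairs of bodies and 5 kb flanks inside peaks were counted with Python 3.11.15, numpy 2.4.6 and pandas 2.3.3, and the counting was tested on simulated data. Among the genes, 107 were left out as lying outside the assembled chromosome sequences. This was inferred from coordinates that were out of order or within the first 3 Mb. Promoter windows were aligned locally with Biopython 1.88 (match 1, mismatch -1, gap opening -3, extension -1). No test was made, since each group has 1 list.

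Genes named with values are family C, 4 receptors with described roles, the 5 members with the largest mean share, the 5 longest uncalled members, up to 5 per direction with the same genotype order at all 4 stages, and the 2 largest genotype differences per stage. Other genes named, such as Vmn2r18, Vmn2r51, Vmn2r28, Vmn2r68, Vmn2r118 and Vmn2r120, were chosen after their values were seen. The members and lists were chosen with earlier results of these data known. Alternatives covered peak length, peak number, flank length, scaling, thresholds and cluster gaps.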

Additional observations from a re-analysis of the deposited data

Results flagged for a closer look

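Vmn2r121 lies on the X chromosome and was outside the autosomal rule. It had calls in all 8 lists. Of its 8.57 kb body, 4.31, 6.62, 6.34 and 4.99 kb lay in peaks in het cells, in order of stage, and 8.57, 8.57, 6.996 and 5.34 kb in KO cells. The length was greater in the KO list at each stage. It is given because the gene belongs to data that no comparison above used.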

How the results depend on the processing

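Values are given in the order E13.5 het, E13.5 KO, E16.5 het, E16.5 KO, P0 het, P0 KO, P3 het and P3 KO. With the longer 50% of peaks only, the called share of Vmn2r bodies was 23.6, 26.1, 30.9, 30.5, 27.8, 29.8, 18.5 and 21.8%. Without the cluster Vmn2r29 to Vmn2r52 it was 29.1, 32.2, 37.8, 37.8, 35.3, 36.9, 24.9 and 28.4%. Members with at least 50% of the body called numbered 29, 37, 38, 41, 34, 39, 22 and 26. With KO lengths scaled by all other genes, the KO to het body ratio was, in order of stage, 0.943, 1.10, 0.874 and 0.963, so it changed direction at E13.5, P0 and P3, of which the reported interval at P0 included 1. The share of differing members with more length in KO was then 36.0%, 73.4%, 24.7% and 46.3%, in part by construction, since fully called genes then count as lower or higher. With differences of at least 1 kb only, that share was 81.5% at P3. The other 149 of 182 values stayed within the interval of the reported value or within 1.5 times a reported count. They include every stage ratio and flank ratio, and the stage ratios' alternatives were chosen after seeing the data. The P3 to P0 ratio ranged from 0.665 to 0.710 in het and from 0.730 to 0.776 in KO cells.

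No paired analysis was possible because each group has 1 list, which carries no replicate number, and no replicate was left out for the same reason. Depth is unknown, and a stretch without a peak is only one under the authors' threshold.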
